A study of Mus musculus with 4 samples.

Results

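The genes described here are the enzymes of glycolysis and a panel of genes that the hypoxia-inducible transcription factor HIF1A is known to drive, 31 genes in all. They were chosen by symbol: 15 core glycolytic enzymes, 5 carriers of glucose or lactate, 2 kinases that set the flow of carbon, Hif1a itself and 8 other HIF1A targets. All 31 symbols were found once each among the 34745 gene rows of the count table, and all 31 passed the filter on low counts, which left 13108 genes tested.

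The cells were primary macrophages grown from the bone marrow of C57BL/6 mice. They were transfected with a small interfering RNA (siRNA) and then treated with LPS, a bacterial cell wall component that activates macrophages. There were 2 groups of 2 libraries: Acly-E14 siRNA with LPS and control siRNA with LPS. Acly encodes ATP citrate lyase, which makes acetyl-CoA from citrate in the cytosol, and the labels do not spell out E14. Every library was transfected and LPS-treated, so neither an untransfected nor an unstimulated level is analysed here, and the labels give no animal age, sex, siRNA dose or time.

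Glycolysis splits glucose into pyruvate in the cytosol and yields ATP without oxygen, and macrophages activated by LPS are known to run it at a high rate. HIF1A is a transcription factor whose protein is normally hydroxylated by oxygen-using enzymes, bound by the VHL protein and destroyed. When it is stabilised, by low oxygen or in activated macrophages, it pairs with ARNT, binds a short DNA motif around ACGTG or GCGTG and drives glycolytic genes as well as genes of oxygen sensing, mitophagy, collagen modification and peptide signalling.

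The libraries held 21023197 and 21837806 counts in the control group and 21323438 and 21086129 in the Acly-E14 group. Acly stood at 158 and 154 CPM (counts scaled to a common library size, with trimmed mean of M-values, TMM, factors) in the control libraries and at 118 and 127 in the Acly-E14 libraries. It fell to 0.783 of the control level (log2 change -0.35, standard error (SE) 0.060, edgeR quasi-likelihood test with Benjamini-Hochberg adjustment, adjusted p = 0.0086), so most of its RNA remained, and without control library 1 the adjusted p was 0.0583. Counts per gene do not tell the transcript forms of Acly apart. All 12 macrophage markers were above 1 CPM in the controls and summed to 8641 to 9486 CPM over the 4 libraries, while 6 of them were called lower and 3 higher, with a median log2 fold change of -0.24 and a range from -1.18 to 1.03. The 15 fibroblast and stroma markers, none at 0, summed to 878 and 1349 CPM in the controls and to 2953 and 3699 CPM in the Acly-E14 libraries, and 13 of the 15 rose. T and NK cell markers summed to 0.348 to 1.17 CPM, with Cd3e, Cd8a, Nkg7 and Ncr1 at 0 in every library. Endothelial markers, with Emcn at 0 throughout, summed to 306 and 293 CPM in the controls and to 126 and 121 CPM in the Acly-E14 libraries, and 2 of the 3 tested were called lower. Erythroid markers summed to 4.02 and 4.397 CPM against 0 and 0.137, and 3 of the 3 tested were called lower. For all genes tested, the shares called were 17.3% higher and 15.9% lower. Whether the libraries within a group are separate cultures or animals is not in the labels, and each p-value measures only the spread between these libraries.

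Of the 31 genes, 14 were higher after Acly-E14 siRNA (45.2%), 0 were lower and 17 did not pass the test at an edgeR adjusted p under 0.05. The count of 0 lower in edgeR became 2 at an unadjusted p under 0.05 and 2 in DESeq2, both of them core enzymes (Hk3 and Pfkp). Over all 13108 genes the share called higher was 17.3% and the share called lower 15.9%, so 33.2% were called in either direction. The median log2 fold change was 0.26 for the 31 genes and 0.0027 for all genes tested. Both Acly-E14 libraries were above both controls for 21 of the 31 genes and below both for 4, while 6 overlapped. Among all genes tested the shares were 35.3% above and 35.3% below. In bulk RNA of this kind, fewer cells of a type and less RNA per cell cannot be told apart.

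The core enzymes and the other HIF1A targets gave different counts. Of the 15 core enzymes, 4 rose and 0 fell (26.7% higher), with a median log2 fold change of 0.19 and a range from -0.24 to 0.54. Of the 8 other targets, 6 rose and 0 fell (75% higher), with a median of 0.54. Among all genes tested, 17.3% were called higher and 15.9% lower. The difference between the class counts was not tested. By edgeR at an unadjusted p under 0.05, 2 core enzymes and 0 of the other targets were lower, and DESeq2 gave the same counts. The core count higher was 1 without control library 1, 2 without Acly-E14 library 1 and 1 without Acly-E14 library 2. The count for the other targets was 3 without control library 1 and 2 without Acly-E14 library 2. Summed over its members, the core set stood at 4874 and 4852 CPM with control siRNA and at 4955 and 5081 in the Acly-E14 libraries, a ratio of 1.03. The summed level of the 8 other targets was 507.6 and 511 CPM against 548 and 549.5, a ratio of 1.08. Both sums are carried by their most abundant genes, which are not the ones with the highest ratios.

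The transcription factor itself was among the genes that rose. Hif1a (ENSMUSG00000021109, chromosome 12) stood at control levels of 270.1 and 303 CPM and at 344 and 391 CPM after Acly-E14 siRNA. Both Acly-E14 libraries lay above both controls, and the mean went from 287 ± 23.3 to 367 ± 32.9 CPM (SD, n = 2 each). The log2 fold change was 0.36 (SE 0.087, edgeR adjusted p = 0.0259), and the adjusted p was 0.141 without control library 1, 0.108 without Acly-E14 library 2 and 0.0606 with no filter on low counts. The gene shares 478 exon bases with other annotated genes, among them Gm15283 on the opposite strand, and the strand setting of the counting is not given in the sources used here.

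Among the other HIF1A targets, adrenomedullin (Adm, ENSMUSG00000030790), a secreted vasodilator peptide, had the highest ratio of all 31 genes. Adm is at chromosome 7, 110627661 to 110629820 on the plus strand (mm10). It stood at 3.48 and 3.79 CPM in the control pair and at 12.8 and 13.1 CPM after Acly-E14 siRNA. The libraries of a group lay close together and the groups far apart, with means of 3.63 ± 0.220 and 12.9 ± 0.177 CPM (SD, n = 2 each). This was 3.55-fold, a log2 fold change of 1.83 (SE 0.13, edgeR adjusted p = 0.00104), and the call held in 12 of 12 alternative settings with log2 fold changes from 1.34 to 1.92.

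Ero1l (ENSMUSG00000021831, chromosome 14, 45283087 to 45318771, minus strand, mm10) encodes an oxidase that forms disulfide bonds in the endoplasmic reticulum. Its values were 45.1 and 43.7 CPM in the controls and 66.7 and 68.7 CPM in the Acly-E14 libraries. Here too the groups were well apart, at 44.4 ± 0.970 and 67.7 ± 1.47 CPM (SD, n = 2 each). The gene rose 1.52-fold (log2 0.61, SE 0.064, edgeR adjusted p = 0.0023) and was called in 12 of 12 alternative settings.

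The prolyl hydroxylases mark HIF1A for destruction and are themselves HIF1A targets. Egln3 stood at 8.35 and 12.2 CPM with control siRNA and at 18.6 and 19.0 after Acly-E14 siRNA. It rose 1.83-fold (log2 0.87, SE 0.18, edgeR adjusted p = 0.0157), although the controls differed from each other more than the Acly-E14 libraries did, and without Acly-E14 library 2 the adjusted p was 0.062. Egln1 stood at 12.6 and 12.9 CPM against 16.0 and 19.4. It rose 1.39-fold (log2 0.48, SE 0.13, edgeR adjusted p = 0.0335). Its adjusted p rose above the threshold when control library 1 (0.133), control library 2 (0.0998) or Acly-E14 library 2 (0.163) was left out and with no filter on low counts (0.0646). The third family member, Egln2, which is not usually counted among HIF1A's targets, did not pass the test (50 and 48.1 against 52.3 and 46.7 CPM, edgeR adjusted p = 0.915). On the per-length FPKM scale, fragments scaled to gene length and library size, Egln2 made up 69.2% and 63.8% of the summed family level in the controls and 57.7% and 52.6% in the Acly-E14 libraries. The share of Egln3 was 14.4% and 20.1% against 25.6% and 26.7%.

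Bnip3, which marks mitochondria for removal by autophagy, stood at control levels of 7.90 and 8.65 CPM and at 11.8 and 13.6 after Acly-E14 siRNA. It rose 1.53-fold (log2 0.62, SE 0.13, edgeR adjusted p = 0.018), which did not hold without control library 1 (0.0838) or Acly-E14 library 2 (0.106). Mif, which encodes a macrophage cytokine, stood at 34.1 and 38.8 CPM against 43.9 and 46.7. The rise was 1.24-fold (log2 0.31, SE 0.091, edgeR adjusted p = 0.0446). The Mif call was lost without control library 1 (0.169), Acly-E14 library 1 (0.0917) or Acly-E14 library 2 (0.192) and with no filter (0.0862). Both genes share sequence with others: 59.1% of the 50-base stretches of the coding transcripts of Bnip3 and 76.4% of those of Mif occur in another annotated gene. Reads of these genes could therefore be split among several genes. For Bnip3 the genes sharing sequence include Gm45507, which overlaps it on the opposite strand (504 exon bases).

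The other two targets of the panel did not pass the test. P4ha1, a prolyl hydroxylase of collagen, stood at 265 and 261 CPM against 254 and 247, a log2 difference of -0.07 (SE 0.051, edgeR adjusted p = 0.335). Ndrg1, a stress-responsive gene, stood at 131 and 129.7 CPM against 125 and 122, a log2 difference of -0.08 (SE 0.053, edgeR adjusted p = 0.280). In both genes the Acly-E14 libraries lay just below the controls, and both differences changed sign with library totals in place of TMM, to 0.02 and 0.01.

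**Figure D1:**
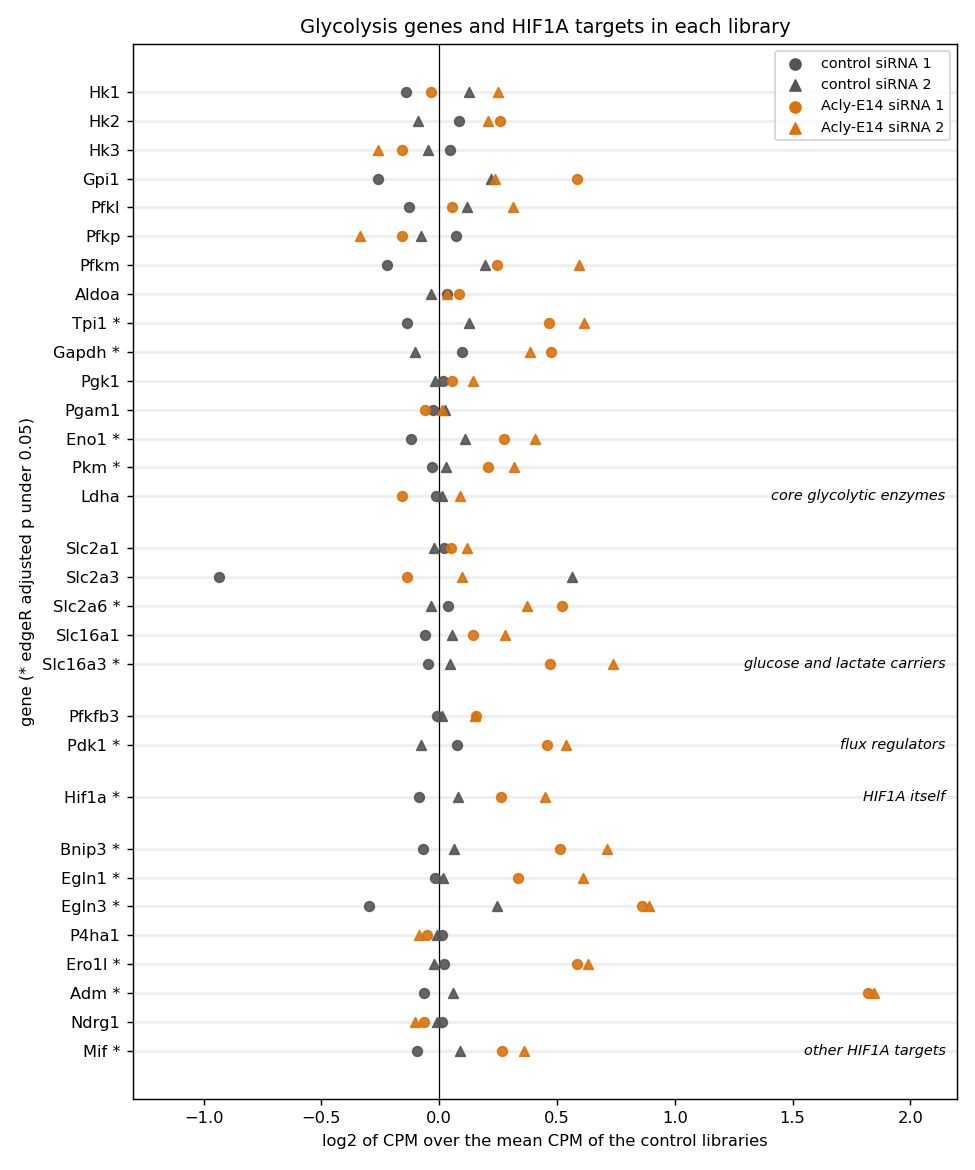
CPM of each member in the 4 libraries over the mean of the 2 control libraries (log2 axis), with genes grouped by class and starred where called at an edgeR adjusted p under 0.05. The 2 Acly-E14 points of Adm stand far above its controls, those of Ero1l and Slc2a6 clearly above, and those of most core enzymes close to or among the control points.

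A short stretch of promoter sequence is shown here for targets that rose and for genes of the panel that did not pass the test, since ACGTG, the core of the HIF1A motif, was found in both. The windows come from RefSeq promoters (GRCm38.p6) and are given 5′ to 3′ on the gene's own strand. The capitals mark the ACGTG match around which each window was cut, which reads as its reverse complement where it lies on the opposite strand. Further matches in the Bnip3, Slc16a3 and Ldha windows are left wholly or partly in lower case. The first 5 belong to genes that rose and the last 5 to genes that did not pass the test.
Ero1l, chr14:45318618-45318647, minus strand: cgcgcgccgctgCACGTccgcaggggaggc
Bnip3, chr7:138909596-138909625, minus strand: cgcacgcgccgcACGTGccacacgctcccc
Egln1, chr8:124949305-124949334, minus strand: gggccgtggtgtACGTGcagcgcgcgcgga
Egln3, chr12:54204086-54204115, minus strand: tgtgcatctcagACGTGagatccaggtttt
Slc16a3, chr11:120949028-120949057, plus strand: caggcagcggtgACGTGcgcgggggacgtg
Ldha, chr7:46845745-46845774, plus strand: ggcccagcctacACGTGggttcccgcacgt
Pgk1, chrX:106186938-106186967, plus strand: gcgtcgtgcaggACGTGacaaatggaagta
Hk2, chr6:82774489-82774518, minus strand: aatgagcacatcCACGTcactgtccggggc
Slc2a1, chr4:119108697-119108726, plus strand: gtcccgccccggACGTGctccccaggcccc
P4ha1, chr10:59323268-59323295, plus strand: tgtgacagagcgCACGTagcgagggctg

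The marked motif lay close to the RefSeq start in several of these: 63 bases before it in Ero1l, 27 in Slc16a3, 47 in Ldha, 36 in Slc2a1 and 16 in P4ha1. The further matches that do not overlap a marked one lay closer still, at 14 bases in Slc16a3 and 34 in Ldha. Of the 29 members with a RefSeq promoter window, 16 held ACGTG on either strand within the 250 bases before the start (55.2%), against 16.6% of 27025 genes in the table. The panel was chosen partly as known HIF1A targets, so its share against all genes is not an independent test. The members' windows were also richer in G and C, with a median of 64.0% against 52.0%. ACGTG was found in 6 of the 15 core enzymes (40.0%) and in 5 of the 7 other targets with a window (71.4%). Only the first listed start of each gene was read. Pfkm had 4 listed windows, Aldoa and Eno1 3, and Hk1, Ldha and Pkm 2, while each of these other targets had 1. Further starts of Aldoa, Eno1, Hk1 and Pkm, counted here as without ACGTG, were therefore not searched. By outcome, ACGTG was found in 6 of the 14 genes that rose (42.9%) and in 10 of the 15 that did not pass the test (66.7%). Adm, the gene with the highest ratio, held no ACGTG in its window and 2 matches of the other form of the motif. That form, GCGTG, was found in 14 of the 29 members (48.3%) against 28.2% of all genes. The palindrome CACGTG, which overlaps ACGTG and is also read by other factors, was found in 5 members (17.2%) against 6.05% of all genes. A match is a description of the letters and not a measured binding site.

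Among the carriers, the lactate exporter and a macrophage hexose transporter rose. Slc2a6 (ENSMUSG00000036067), also called GLUT6, stood at 229 and 218 CPM in the control pair and at 321 and 289.5 CPM after Acly-E14 siRNA. It rose 1.36-fold, from 224 ± 7.85 to 305 ± 22.1 CPM (SD, n = 2 each; log2 0.45, SE 0.069, edgeR adjusted p = 0.00643), and was called in 12 of 12 alternative settings. Slc16a3, also called MCT4, which exports lactate, stood at 26.9 and 28.6 CPM against 38.5 and 46.2. The rise was 1.53-fold (log2 0.61, SE 0.11, edgeR adjusted p = 0.0104), and without control library 1 the adjusted p was 0.0651.

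The other 3 carriers did not pass the test. Slc2a1, the widely expressed glucose transporter GLUT1 and a known HIF1A target, stood at 193 and 188 CPM against 197 and 207, a log2 difference of 0.08 (SE 0.055, edgeR adjusted p = 0.290). Slc16a1, the lactate carrier MCT1, stood at 33.7 and 36.5 CPM against 38.8 and 42.6, a log2 difference of 0.21 (SE 0.088, edgeR adjusted p = 0.116). The Acly-E14 libraries of both lay above both controls, by less than the test asks. Slc2a3, the glucose transporter GLUT3, was close to the floor of detection at 0.447 to 1.26 CPM, and its groups overlapped.

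On the FPKM scale, Slc2a6 made up 55.4% and 54.8% of the summed level of Slc2a1, Slc2a3 and Slc2a6 in the controls and 63.0% and 59.4% after Acly-E14 siRNA. The share of Slc16a3 in the summed level of the lactate carriers Slc16a1 and Slc16a3 was 28.7% and 28.4% against 33.4% and 35.4%. In both families the shares of the groups did not overlap. The size of each share depends on the gene length used, as for the order of levels below.

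Glycolysis begins with phosphorylation of glucose by a hexokinase, and none of the 3 isozymes passed the test. Hk3, the main hexokinase of myeloid cells, stood at 1279.5 and 1196 CPM with control siRNA and at 1111 and 1034 after Acly-E14 siRNA, a log2 difference of -0.21 (SE 0.066, edgeR adjusted p = 0.0573). Hk2, the inducible isozyme and a HIF1A target, stood at 302 and 268 CPM against 341 and 329, a log2 difference of 0.23 (SE 0.072, edgeR adjusted p = 0.0531). Each pair of groups was apart, with Hk3 on the lower side and Hk2 on the higher, and both missed the threshold narrowly. Hk1, the widely expressed isozyme, stood at 148 and 178 CPM against 159 and 194, and its groups overlapped (log2 0.11, SE 0.12, edgeR adjusted p = 0.521). Of the summed FPKM of the 3 hexokinases, Hk3 made up 78.9% and 78.6% in the controls and 74.4% and 72.7% after Acly-E14 siRNA, and Hk2 16.6% and 15.7% against 20.3% and 20.6%.

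The pair Hk2 and Hk3 was called under other settings. With the replicate number as a block, and in DESeq2, Hk2 was called higher and Hk3 lower. With library totals in place of TMM factors, Hk2 was called higher and Hk3 was not called.

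The phosphofructokinases, which commit the sugar to glycolysis, also differed among themselves. Pfkp, the most abundant, stood at control levels of 257 and 232 CPM and at 219.6 and 194 after Acly-E14 siRNA, a log2 difference of -0.24 (SE 0.085, edgeR adjusted p = 0.0735). Pfkl stood at 36.9 and 43.6 CPM against 41.7 and 49.97 (log2 0.19, SE 0.12, edgeR adjusted p = 0.288), and Pfkm at 2.98 and 3.98 against 4.12 and 5.25 (log2 0.43, SE 0.23, edgeR adjusted p = 0.211). None of the 3 passed the test, and Pfkp was called lower with the replicate block and in DESeq2. In FPKM, Pfkp made up 71.7% and 65.5% of the family in the controls and 65.0% and 57.5% in the Acly-E14 libraries, so the groups nearly met, while the share of Pfkl was 25.02% and 29.99% against 30.1% and 36.2%.

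The remaining enzymes of the upper pathway gave 1 call. Tpi1, triosephosphate isomerase, which interconverts the triose phosphates, stood at 87.8 and 105 CPM in the control pair and at 133 and 148 after Acly-E14 siRNA. It rose 1.46-fold, from 96.5 ± 12.3 to 140.5 ± 10.1 CPM (SD, n = 2 each; log2 0.54, SE 0.10, edgeR adjusted p = 0.0117), the highest ratio among the core enzymes. The adjusted p was 0.0539 without control library 1 and 0.0553 without Acly-E14 library 2. Gpi1, glucose phosphate isomerase, had wide spread at 89.3 and 125 CPM against 160 and 126, a log2 difference of 0.42 that did not pass the test (SE 0.18, edgeR adjusted p = 0.126) except without control library 2 (0.0448). Aldoa, the aldolase of most tissues, stood at 474 and 452 CPM against 491 and 473, with overlapping groups (edgeR adjusted p = 0.454).

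In the lower pathway, which earns the ATP, 3 of the 6 enzymes rose. Gapdh, glyceraldehyde phosphate dehydrogenase, stood at 66.8 and 58.3 CPM with control siRNA and at 86.9 and 81.6 after Acly-E14 siRNA. It rose 1.35-fold (log2 0.43, SE 0.084, edgeR adjusted p = 0.0132), and the call was lost without control library 2 (0.0508) or Acly-E14 library 1 (0.0594). Eno1, enolase, stood at 60.3 and 70.5 CPM against 79.2 and 86.7, a rise of 1.27-fold (log2 0.34, SE 0.095, edgeR adjusted p = 0.0383). That call was lost without control library 1 (0.155), Acly-E14 library 1 (0.0596) or Acly-E14 library 2 (0.173) and with no filter (0.0852).

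Pkm, pyruvate kinase, the last enzyme on the way to pyruvate, stood at control levels of 756 and 787 CPM and at 892 and 962 after Acly-E14 siRNA. It rose 1.20-fold, from 772 ± 21.4 to 927 ± 49.6 CPM (SD, n = 2 each; log2 0.26, SE 0.062, edgeR adjusted p = 0.0232). Although the groups stood well apart, the adjusted p was 0.133 without control library 1, 0.0713 without control library 2 and 0.112 without Acly-E14 library 2. Counts per gene do not tell the muscle-type splice forms of Pkm apart.

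The other enzymes of the lower pathway did not pass the test. Pgk1, phosphoglycerate kinase, stood at 213 and 208 CPM against 218 and 232 (log2 0.10, SE 0.057, edgeR adjusted p = 0.235). Pgam1, phosphoglycerate mutase, stood at 314 and 325 CPM against 306 and 322, and Ldha, the lactate dehydrogenase subunit that turns pyruvate into lactate, at 786 and 799 against 710 and 844. The groups of Pgam1 and Ldha overlapped, with log2 differences of -0.02 (SE 0.055, edgeR adjusted p = 0.777) and -0.03 (SE 0.088, adjusted p = 0.828), and both changed sign with library totals, to 0.07 and 0.06.

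Several core enzymes have many processed copies in the mouse genome, and how shared reads were assigned is not given in the sources used here. More than 20% of the 50-base stretches of the coding transcripts were shared with another annotated gene in 8 members: Mif, Pgk1, Bnip3, Gapdh, Eno1, Pgam1, Gpi1 and Pkm. For Gapdh the share was 58.4%. Over all its transcripts, coding or not, the share was 25.1%, and 223 other annotated genes held some of that sequence. Without these 8, in an alternative added after the data were seen, 1 of the 9 remaining core enzymes was called higher, which is Tpi1, and 4 of the 6 remaining HIF1A targets. Of the 4 core calls, 3 therefore rest on genes that share sequence in this way. Shared sequence here includes overlapping genes as well as copies. Over all transcripts, the gene sharing most with Pkm was Gm49759, which overlaps it on the same strand (767 exon bases). For Gpi1 it was Gm26762, which overlaps it on the opposite strand (741 exon bases). Eno1b, an annotated gene that carries the Eno1 sequence, stood at 24.2 and 24.2 CPM against 28.4 and 31.5, a rise of 0.31 on the log2 scale (edgeR adjusted p = 0.0472).

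The kinases that set flow were Pfkfb3 and Pdk1. Pfkfb3, which makes the activator of phosphofructokinase, stood at 176 and 179 CPM in the control pair and at 198 and 197 after Acly-E14 siRNA. The groups were apart but the log2 difference was only 0.15 (SE 0.051, edgeR adjusted p = 0.0632). Of 12 alternative settings, 5 called it higher, among them the replicate block (0.0454), DESeq2 (0.0173) and library totals (0.0151). Pdk1, which switches off pyruvate dehydrogenase and is a HIF1A target, stood at 11.3 and 10.1 CPM against 14.7 and 15.6. It rose 1.42-fold (log2 0.50, SE 0.11, edgeR adjusted p = 0.0209), a call that was lost on leaving out any 1 of the 4 libraries, with adjusted p from 0.0533 to 0.108.

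Levels between genes can be compared only per length, on the FPKM scale. In the controls Pkm was the highest of the 31 genes at 288 FPKM, followed by Hk3 at 196, Pgam1 at 169 and Ldha at 167. Aldoa at 75.8, Pgk1 at 66.8 and Mif at 63.7 came next. Pgam1 and Ldha did not differ beyond the spread of their libraries. At the other end were Adm at 1.22, Pfkm at 1.14, Pdk1 at 0.918 and Slc2a3 at 0.0762. Of the 14 genes that rose, Pkm alone stood in the top 4, and Adm was 28th of 31.

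The order, like the family shares above, depends on the gene length used. Gapdh, among the most abundant RNAs of most cells, was only 23rd of 31 at 7.01 FPKM, and the length implied by its deposited FPKM and counts was 8626 bases, against 4133 bases of merged GENCODE exons. With merged exon lengths, an alternative added after the data were seen, the order began with Hk3, Ldha, Pgam1, Aldoa and Pkm, in that order, while Gapdh was 19th. For Slc16a3 the implied length was 8750 bases against 5318 of merged exons, while for Slc16a1 both were 4426. Whether reads of Gapdh were lost to its copies was not tested.

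**Figure D2:**
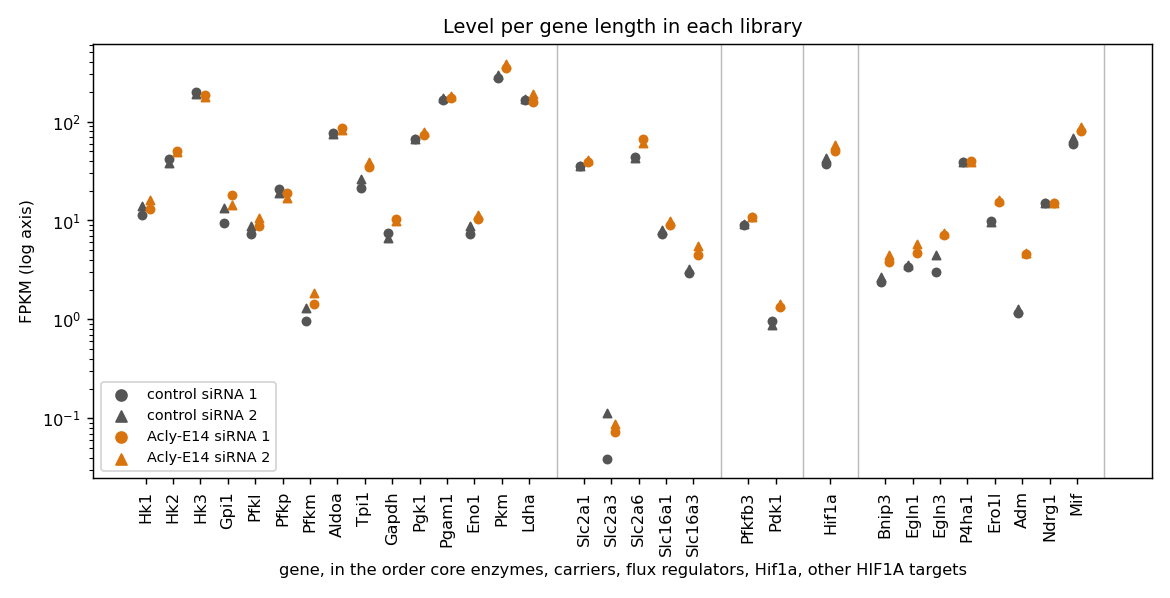
FPKM of each member in the 4 libraries (log10 axis), grouped by class. Pkm, Hk3, Pgam1 and Ldha lead in the controls at 288, 196, 169 and 167 FPKM, and Slc2a3 is lowest at 0.0762.

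The wider set of glycolytic isozymes and sugar-handling genes was close to the background in the share called higher. Of 30 listed genes 20 were tested, with a median log2 fold change of 0.09. Of these, 3 were higher (15%, against 17.3% of all genes) and 1 was lower (5%, against 15.9%). Pfkfb4, a HIF1A-induced relative of Pfkfb3, rose from 4.87 and 4.72 CPM to 10.5 and 9.36 (log2 1.05, SE 0.14, edgeR adjusted p = 0.00444) and was called in 12 of 12 alternative settings. Eno3, the muscle enolase, rose from 1.09 and 0.982 CPM to 2.43 and 3.11, and Aldoc, the brain aldolase, from 7.65 and 7.34 to 11.2 and 12.4. Pgm2, a phosphoglucomutase, fell from 30.2 and 30.0 CPM to 22.1 and 21.1 (log2 -0.48, edgeR adjusted p = 0.00901). The calls of Eno3, Aldoc and Pgm2 were lost in 3, 2 and 1 of 12 alternative settings. The count higher was 1 without control library 1 and 1 without Acly-E14 library 2, and the count lower was 0 without Acly-E14 library 2.

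Genes for the entry of pyruvate into mitochondria stood on the other side. Of 13 tested, 0 rose and 6 fell (46.2%, against 15.9% of all genes), with a median log2 fold change of -0.40. Pdp1, the phosphatase that switches pyruvate dehydrogenase on, fell from 43.1 and 44.5 CPM to 30.3 and 28.3 (log2 -0.58, SE 0.079, edgeR adjusted p = 0.0044). The subunits of the dehydrogenase complex Pdhb and Dld fell from 64.2 and 68.8 CPM to 51.1 and 47.7 and from 133 and 128 CPM to 104 and 96.4. Pdk4, a kinase that opposes Pdp1, also fell, from 1.84 and 1.64 CPM to 0.137 and 0.274, which is 3 and 6 counts. The other genes that fell were Mpc2, a subunit of the mitochondrial pyruvate carrier, and Pdhx, with log2 fold changes of -0.53 and -0.40 and edgeR adjusted p of 0.0336 and 0.0475. Those 2 calls held in 4 and 5 of 12 alternative settings. The count lower was 3 without Acly-E14 library 2. The count of 0 higher was also 0 at an unadjusted p under 0.05 in edgeR and 0 in DESeq2.

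Of the genes that sense oxygen or form the HIF complex, 13 of 14 were tested. Of these, 0 rose (against 17.3% of all genes) and 3 fell (23.1%, against 15.9% of all genes), with a median log2 fold change of -0.16. Cited2, an inhibitor that competes with HIF1A for the coactivators p300 and CBP, fell from 216 and 221 CPM to 122 and 119 (log2 -0.85, SE 0.053, edgeR adjusted p = 0.000842). Cul2, the scaffold of the VHL ubiquitin ligase, fell from 103 and 101 CPM to 68.3 and 65.8 (log2 -0.61, SE 0.058, edgeR adjusted p = 0.00193). Both were called in 12 of 12 alternative settings. Ep300, which encodes p300, fell from 172 and 158 CPM to 132 and 131 (log2 -0.32, edgeR adjusted p = 0.0131), a call that held in 7 of 12. The count of 0 higher was 0 at an unadjusted p under 0.05 in edgeR, 0 in DESeq2 and 1 with the replicate block.

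The further HIF1A targets outside the panel moved in both directions. Of 34 listed, 31 were tested, with a median log2 fold change of 0.08. Of these, 13 rose (41.9%, against 17.3% of all genes) and 9 fell (29.0%, against 15.9%). Among those with the smallest p were Cxcr4, Il1b, Ddit4, Bhlhe40 and Car12, each called in 12 of 12 alternative settings. Il1b, the cytokine interleukin 1 beta, rose from 678 and 625 CPM to 1503 and 1368, and Ddit4, an inhibitor of mTORC1 signalling, from 6.66 and 7.16 to 17.7 and 20.6. Car12, a carbonic anhydrase, rose from 3.13 and 4.16 CPM to 11.1 and 14.2. Cxcr4, a chemokine receptor, fell from 15.9 and 16.0 CPM to 3.48 and 3.11, and Bhlhe40, a transcriptional repressor, from 214 and 201 to 140 and 136. A further 2 were chosen after their values were seen, since they pair with the panel: Vegfa, the vascular growth factor, rose from 33.7 and 45.6 CPM to 64.7 and 71.3 (log2 0.78, edgeR adjusted p = 0.0117), and Bnip3l, the close relative of Bnip3, fell from 159.5 and 165 to 124 and 96.1 (log2 -0.56, edgeR adjusted p = 0.0177). Many further HIF1A targets also answer to other pathways, and no chance test of any list was made.

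The stroma markers rose in the same contrast as the 14 genes, with the values given above. The medians of the tested macrophage, endothelial and erythroid markers were lower, at log2 fold changes of -0.24, -0.45 and -6.75. Of the 2 neutrophil markers tested, 1 was called higher and 1 lower. The median log2 fold change of the stroma markers was 1.43, against 0.54 for the 8 other HIF1A targets. Between the controls, library 2 was above library 1 for 14 of 15 stroma markers, with a median log2 difference of 0.53. The same held for 10 of the 14 members that rose, with a median of 0.10, and for 50.6% of all genes tested. Among those members the controls differed most for Egln3, at 8.35 and 12.2 CPM, while Tpi1, Hif1a and Eno1 were also higher in control library 2, and Gapdh, Pdk1, Slc2a6 and Ero1l were lower there. The part of other cell types' RNA in the members' differences was not tested.

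**Figure D3:**
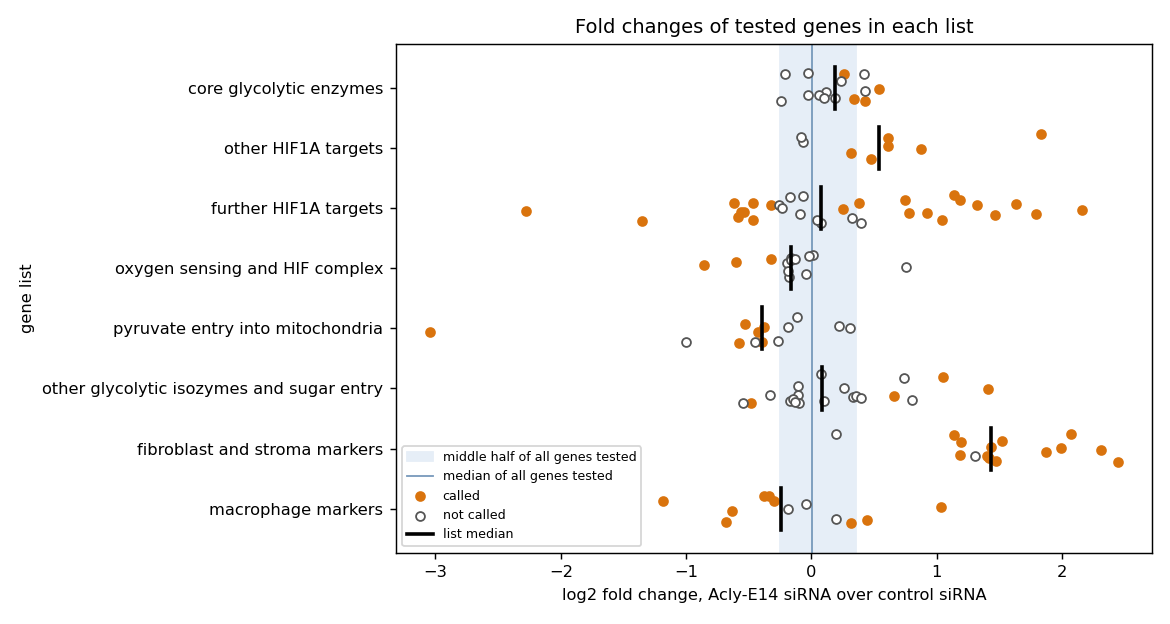
Log2 fold change of Acly-E14 siRNA over control siRNA for each tested gene (points, filled where called at an edgeR adjusted p under 0.05) in 8 gene lists, with the list median (bar) and the middle of all genes tested (shading from the lower to the upper quartile). The medians run from -0.40 for pyruvate entry to 1.43 for stroma markers, with 0.19 for the core enzymes and 0.54 for the 8 other HIF1A targets.

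How far the member calls held is shown by the count under each setting. The count of members called higher was 5 without control library 1, 11 without control library 2, 10 without Acly-E14 library 1 and 5 without Acly-E14 library 2. The members called in 12 of 12 alternative settings were Adm, Ero1l and Slc2a6. With library totals in place of TMM factors, 17 members were called higher, while 65.8% of all calls were then higher against 52.0% with TMM, and the median of all genes moved from 0.0027 to 0.09. The smallest two-sided p of an exact permutation test of 2 libraries against 2 is 0.333, and the calls rest on the spread shared across genes in the edgeR fit.

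**Figure D4:**
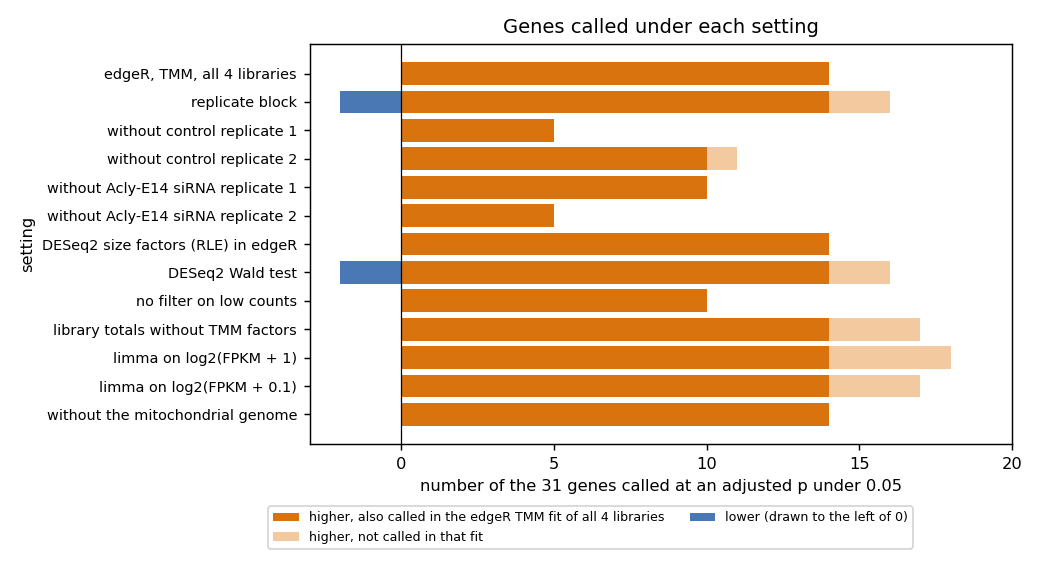
Number of the 31 members called higher and lower (bars to the left of 0) with edgeR and TMM on all 4 libraries and under 12 alternatives. The count higher runs from 5, without control library 1 or Acly-E14 library 2, to 18, and the count lower is 2 with the replicate block and in DESeq2 and 0 otherwise.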

How the data were processed

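RNA of 4 libraries was sequenced. The authors deposited read counts and FPKM values per gene, per the file headers. HISAT2, StringTie 1.3.0, edgeR and the build mm10 are named per the submitters' processing notes; their roles, with the counting program, strand setting, annotation and treatment of shared reads, were not given in the sources used here. Per the labels, the library kit is for stranded total RNA, and a capture kit for mRNA is named as well.

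Of the value columns, 1, an FPKM column, carried no replicate number and was not used, so FPKM values of all libraries were recomputed from the counts and the gene length that the deposited FPKM imply. They matched the deposited values of the FPKM columns used in 49103 of 49103 cases within a relative tolerance of 0.001. Each gene's length came from its column with the most counts, so the match in that column was fixed in advance. The unused column was not compared. Symbols were matched by Ensembl identifier for 34267 of 34745 rows. Counts were tested with edgeR 4.0.16 (R 4.3.3; TMM, filterByExpr with a minimum count of 10, glmQLFit, glmQLFTest) on all 4 libraries, over 13108 genes, with Benjamini-Hochberg adjustment and a threshold of 0.05. DESeq2 1.42.0 and limma 3.58.1 on log2(FPKM + 1) and log2(FPKM + 0.1) were alternatives. The edgeR code was tested on simulated data.

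The members and lists were chosen with earlier results of these data known. All members are named, with Acly and, in each wider list, up to 6 called genes of smallest p, of which 1 is not reported here; other names were chosen after their values were seen. The motifs ACGTG and GCGTG, and the palindrome CACGTG, were searched on both strands in the 250 bases before the first listed RefSeq start of each gene (GRCm38.p6; 29 of 31 members matched, Ero1l as Ero1a). Shared sequence was found as 50-base stretches of GENCODE M21 coding transcripts shared with another gene's transcripts, which counts overlapping genes as well as copies.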

Additional observations from a re-analysis of the deposited data

How the results depend on the processing

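With 2 libraries per group the counts of calls move with each library. Depth was not varied, and Slc2a3 rests on the fewest counts, 9 to 27 per library. Of 372 values of single members under 12 alternatives, 301 kept their direction and their side of the threshold, 30 lost the call, 19 gained one and 22 changed sign. The changes of sign were in genes not called, and the cause of all these changes was not tested.

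Whether the replicate numbers pair the libraries was not settled. Across the 13108 genes tested, the difference between libraries 1 and 2 of the control group and that of the Acly-E14 group correlated at 0.14. With the replicate number as a block, 2514 genes were called higher and 2382 lower, 16 members were higher and 2 lower (both core enzymes), 2 isozymes were lower and 1 oxygen-sensing gene was higher. On leaving out 1 library, all genes called higher ran from 1045 to 1815 and lower from 982 to 1400, members higher from 5 to 11, core enzymes higher from 1 to 3, other HIF1A targets higher from 2 to 5, isozymes higher from 1 to 4 and lower from 0 to 1, and pyruvate genes lower from 3 to 4. The core median then ran from 0.086 to 0.25 and that of the other targets from 0.42 to 0.62.

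With DESeq2, 2 members were called lower, both core enzymes. With library totals the core median was 0.28 and 7 isozymes were higher. With limma and a pseudocount of 1, 1389 genes were lower, 7 core enzymes and 7 isozymes higher. With a pseudocount of 0.1, 1383 genes were lower, the core median was 0.28 and 7 isozymes were higher. Both limma fits put 65.8% of calls on the higher side. At an adjusted p under 0.1, 2 members were lower, both core enzymes, and 8 isozymes were higher and 3 lower. With an absolute log2 fold change over 1 in addition, 982 genes were higher and 219 lower, 1 member (Adm, a HIF1A target) and 0 core enzymes were higher, 0 isozymes and 0 oxygen-sensing genes and 1 pyruvate gene were lower, and of the further HIF1A targets 8 were higher and 2 lower. Without the 8 members that share more than 20% of their 50-base stretches, a choice made after the data were seen, 9 members and 1 core enzyme were higher.

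Differences of genes that were not called and that changed sign follow, on the log2 scale. Hk1 (0.11) ran from -0.035 to 0.25 on leaving out 1 library. Pgam1 (-0.02) ran from -0.060 to 0.015 on leaving out 1 library and was 0.068 with library totals and both limma fits. Ldha (-0.03) ran from -0.16 to 0.092 on leaving out 1 library and was 0.063 with library totals and 0.057 with both limma fits. P4ha1 (-0.07) was 0.022, 0.021 and 0.022, and Ndrg1 (-0.08) 0.0088, 0.0081 and 0.0086, with library totals and limma with a pseudocount of 1 and of 0.1. Slc2a3 (-0.03) ran from -0.58 to 0.91 on leaving out 1 library and was 0.040 with the block, 0.060 with library totals, 0.0058 with limma and a pseudocount of 1 and 0.062 with 0.1.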
